A study of Mus musculus with 3 samples.

Results

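The 10 genes described here are 8 tissue kallikreins of mouse skin (Klk5, Klk6, Klk7, Klk8, Klk10, Klk11, Klk13 and Klk14) and 2 protease inhibitors (Spink5 and Cst6), out of 32285 genes in the count files. They were chosen by their levels in marker-gated cell classes of these same libraries, so the contrasts between classes given below describe them and carry no test. Single-cell RNA sequencing (scRNAseq, 10X Chromium 3ʹ version 3 chemistry) had been run on back skin of 3 ages, P38 (male, catagen), 6 months (female, mostly anagen) and 12 months (male, mixed telogen and anagen), with 1 library per age. All were wildtype by their labels and untreated. The methods of the study describe epithelial cells sorted by the H2B-GFP of Krt14-H2B-GFP mice, whereas the labels describe whole dissociated back skin with no sort. The paper states that P38 in particular came from sorted GFP-positive cells, with few dermal cells, while 6 and 12 months held dermal populations. Kept cells of non-epithelial classes numbered 3 at P38, 265 at 6 months and 569 at 12 months. Age therefore cannot be told apart from sex, hair cycle stage, sorting or library. How many animals went into a library was not given in the sources used here.

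Tissue kallikreins are secreted serine proteases made as inactive precursors. In the outer epidermis KLK5 and KLK7 cut the proteins that hold cornified cells together, which lets the outermost layer shed, and KLK5 can activate itself and other kallikreins. Spink5 encodes LEKTI, a multidomain inhibitor that holds these kallikreins in check, and its loss causes Netherton syndrome. Cst6 encodes cystatin M/E, a secreted inhibitor of cathepsin L, cathepsin V and legumain, and its loss in mice disturbs cornification and the hair follicle canal.

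The 8 kallikrein genes lie in one gene cluster on the plus strand of chromosome 7 (GRCm38), in the order Klk14, Klk13, Klk11, Klk10, Klk8, Klk7, Klk6, Klk5, within 43690418 to 43851181, a span of 161 kb. Cst6 lies on chromosome 19 (5344705 to 5349574, minus strand). An antisense gene, 2310002F09Rik, overlaps Klk8, Klk10, Klk11, Klk13 and Klk14 on the other strand. The chemistry keeps the strand of a transcript.

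The genes of the locus fell into different patterns, so the sequence just before the start of the genes that stood for each pattern is shown. Klk5 and Klk7 were high in both granular and upper follicle cells, and Klk6 and Klk10 were high in a subset of upper follicle cells. The sequences are 250 bases ending at the base before the transcription start in RefSeq (GRCm38.p6, plus strand), which lists 2 starts for Klk6. Capitals mark a match, on either strand, to CCACCC (bound by KLF factors) or to AGATAA (bound by GATA factors).
Klk5, chr7:43842019-43842268: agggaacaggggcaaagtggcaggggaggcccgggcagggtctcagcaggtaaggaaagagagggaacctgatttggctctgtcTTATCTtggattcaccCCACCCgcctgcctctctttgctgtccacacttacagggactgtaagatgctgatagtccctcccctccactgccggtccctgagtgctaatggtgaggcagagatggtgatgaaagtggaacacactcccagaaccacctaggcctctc
Klk7, chr7:43811044-43811293: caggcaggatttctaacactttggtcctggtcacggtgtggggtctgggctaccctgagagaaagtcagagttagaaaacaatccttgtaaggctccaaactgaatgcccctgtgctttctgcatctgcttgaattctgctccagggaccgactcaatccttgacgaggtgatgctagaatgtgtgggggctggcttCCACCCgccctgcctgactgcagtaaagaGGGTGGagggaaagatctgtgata
Klk10, chr7:43780804-43781053: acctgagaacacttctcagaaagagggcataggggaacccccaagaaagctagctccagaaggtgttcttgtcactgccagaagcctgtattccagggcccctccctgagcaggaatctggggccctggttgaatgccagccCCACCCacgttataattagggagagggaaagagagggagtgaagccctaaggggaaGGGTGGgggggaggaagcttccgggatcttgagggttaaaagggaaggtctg
Klk6 first start, chr7:43824294-43824543: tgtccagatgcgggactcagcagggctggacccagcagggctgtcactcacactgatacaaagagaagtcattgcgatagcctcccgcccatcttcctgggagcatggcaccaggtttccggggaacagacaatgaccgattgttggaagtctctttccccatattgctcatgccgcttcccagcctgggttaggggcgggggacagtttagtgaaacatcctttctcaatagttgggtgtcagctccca
Klk6 second start, chr7:43825200-43825449: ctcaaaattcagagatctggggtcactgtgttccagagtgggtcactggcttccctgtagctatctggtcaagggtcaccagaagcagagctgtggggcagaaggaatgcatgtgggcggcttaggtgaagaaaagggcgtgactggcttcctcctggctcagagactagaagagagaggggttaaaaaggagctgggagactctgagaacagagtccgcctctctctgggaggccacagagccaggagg

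CCACCC was found in 1 copy before Klk5, in 2 copies each before Klk7 and Klk10, and in no copy before either start of Klk6. Over all 32851 listed promoters, 28.1% held it. AGATAA was found only before Klk5 among the kallikrein promoters searched, 166 bases before the start, and 9.99% of all promoters held it. The AP-1 motif TGANTCA (6.75% of promoters), the grainyhead-like motif AACCNGTT (1.79%) and the TATA box motif TATAAA (12.4%) had no match before any of the 8 kallikreins. Of the motifs, CCACCC and AGATAA do not overlap in these sequences, and a match is a description of letters only.

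Kept cells (more than 200 and fewer than 5000 genes, under 15% mitochondrial UMIs) numbered 2109 at P38, 3502 at 6 months and 3240 at 12 months. They held 34646663, 24698719 and 38910431 UMIs (unique molecular identifiers, 1 per captured transcript). Median depth was 16170 UMIs at P38 and 1019 at 6 months, where 1839 cells had under 1000 genes. A cell was given a class only from marker genes that are no members: Lor for Granular-like, Krt79 for upper hair follicle (UpHF)-like, Gja1 with Krt6a for migrating niche (migNiche)-like, and others likewise. Of 8851 kept cells, 3921 met no gate. The level of a gene is its summed UMIs divided by all UMIs of the class in a library, per 1000000 (CPM), with an exact Poisson 95% interval where one is given. These intervals cover counting error only, and 3ʹ counts are per transcript, with no division by gene length.

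Granular-like cells were few, 3 at P38, 18 at 6 months and 8 at 12 months, and no granular level below has the weight of the upper follicle ones. Their gate asked for high Lor and a UMI of another granular marker, so granular genes give no independent sign of their identity. Flg stood in them at 5446, 7253 and 3015 CPM and Flg2 at 1939, 8580 and 6284 CPM, with Krt14 at 102, 42.3 and 48.6 CPM. UpHF-like cells numbered 156, 143 and 165. Their gate asked for high Krt79, above Krt10, and for a UMI of Defb6, Gata6, Atp6v1c2, Teddm3 or Nebl. Defb6 stood in them at 14684, 7572 and 12436 CPM, and as a gate gene it is no independent sign of identity. When the same cells were clustered without the members, clusters named UpHF-like took in 46 of 156, 99 of 143 and 61 of 165 UpHF-like cells in order of age, and 92 of the 165 of the oldest library lay in a cluster named Granular-like. The libraries also share cell barcodes: 136 between 6 and 12 months, 5 between P38 and 6 months and 2 between P38 and 12 months. Shared barcodes included 3 of the 8 Granular-like and 6 of the 7 migNiche-like cells at 12 months.

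In summed counts the granular epidermis carried Klk7 and Spink5 at about equal level, with Klk5 and Klk8 below them. Of the 7 members with at least 10 UMIs over Granular-like and basal cells of the interfollicular epidermis (IFE) together in each library, 5 were at least 2-fold higher in Granular-like cells in all 3 libraries (Klk5, Klk7, Klk8, Spink5 and Cst6), where 8.48% of 7870 genes were. The members had been selected on such levels, so nothing is read from that excess. Klk7, which cuts corneodesmosin and desmocollin, stood at 3864 CPM (3441 to 4325), 4311 (4142 to 4485) and 3239 (2901 to 3606) in order of age. IFE basal-like cells held Klk7 at 6.79, 10.3 and 1.19 CPM, so that the 2 classes were far apart in every library. On the log2 scale the difference averaged 9.70 ± 1.42 (SD, n = 3 libraries).

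Spink5, on chromosome 18 (43963235 to 44022501, plus strand), was close to Klk7, at 3801 CPM (3381 to 4258), 4431 (4260 to 4608) and 4436 (4038 to 4862) in the 3 libraries, in order of age. IFE basal-like cells held it at 9.47, 8.21 and 15.7 CPM, a mean log2 difference of 8.59 ± 0.43 (SD, n = 3). Per 100 UMIs of Klk5 and Klk7 together, Granular-like cells held 81.6, 91.1 and 125 UMIs of Spink5. These sums lean on single cells. At P38 the cell with most held 86.9% of the Spink5 and 60.7% of the Klk7 UMIs, and at 12 months 64.5% and 57.4%. The median Granular-like cell at P38 had 27.4 UMIs of Spink5 and 45.9 of Klk7 per 10000, so the near equality there is not that of the median cell. Inhibitor and proteases were found in the same cells: all 3, 16 of 18 and all 8 Granular-like cells had a UMI of Klk7, and each of those cells also had one of Spink5.

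Klk5 was found at 791 CPM (606 to 1014), 553 (493 to 617) and 302 (205 to 428) in Granular-like cells. IFE basal-like cells held only 3, 1 and 5 UMIs of it, which gave log2 differences of 10.3 (8.91 to 12.8), 8.49 (6.58 to 14.4) and 8.35 (7.09 to 10.2). Klk8, a kallikrein also known from brain as neuropsin, stood at 944, 665 and 671 CPM against 16.3, 19.5 and 12.6 in IFE basal-like cells, a mean log2 difference of 5.55 ± 0.43 (SD, n = 3). Cst6 was present at 9438, 3037 and 3375 CPM. Among these proteases Klk7 was the highest in each library. The intervals of Klk8 and Klk5 overlap at P38 (741 to 1185 against 606 to 1014) and at 6 months, while at 12 months Klk8 (522 to 849) lay above Klk5.

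The remaining kallikreins had lower granular levels. Klk11 stood at 115 CPM (52.5 to 218), 47.5 (31.3 to 69.2) and 38.9 (10.6 to 99.6) in Granular-like cells against 40.8, 38 and 33.6 in IFE basal-like cells, and the intervals of both classes overlap at 6 and 12 months but not at P38, where the log2 difference was 1.57 (0.35 to 2.44) on 9 UMIs. Klk6 gave 5, 2 and 1 UMIs and Klk10 1, 3 and 0 UMIs there. Klk13 and Klk14 gave none, which allows up to 38.3, 5.28 and 29.2 CPM in the 3 libraries. Summed over the 8 kallikreins, Granular-like cells held 5790, 5586 and 4261 CPM, of which Klk7 made up 66.7%, 77.2% and 76.0%. Against IFE basal-like cells (76.0, 83.2 and 62.4 CPM) the summed level was higher by 6.14 ± 0.10 on the log2 scale (SD, n = 3). Without cells of shared barcodes the granular sums were 5790, 5335 and 4264 CPM.

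**Figure D1:**
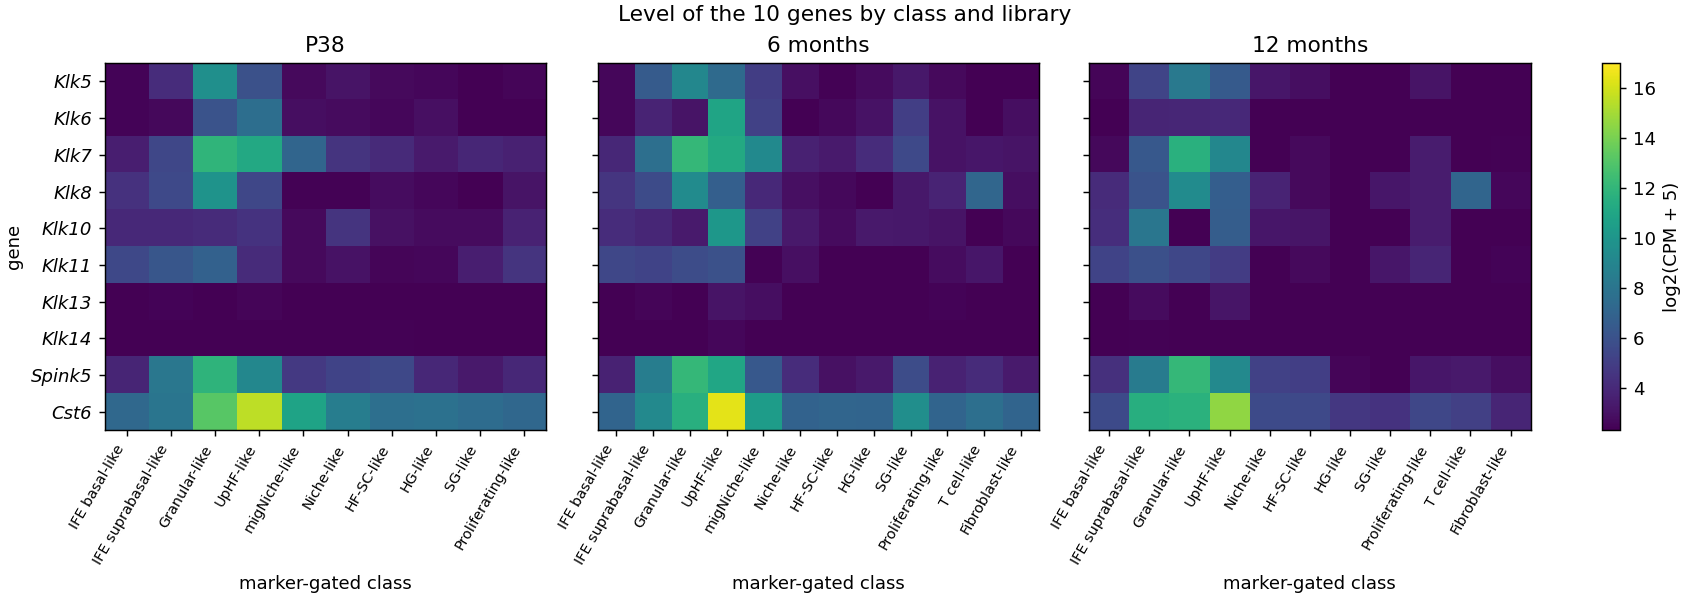
Levels of the 10 genes as log2(CPM + 5), one panel per library, with classes of at least 50000 UMIs along the horizontal axis and genes along the vertical axis. The brightest squares are those of Cst6, Klk7 and Spink5 in the Granular-like and UpHF-like columns, other bright ones include Cst6 and Klk7 in migNiche-like, Spink5 in IFE suprabasal-like and Klk8 in T cell-like cells, and Klk13 and Klk14 are near 0 throughout.

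**Figure D2:**
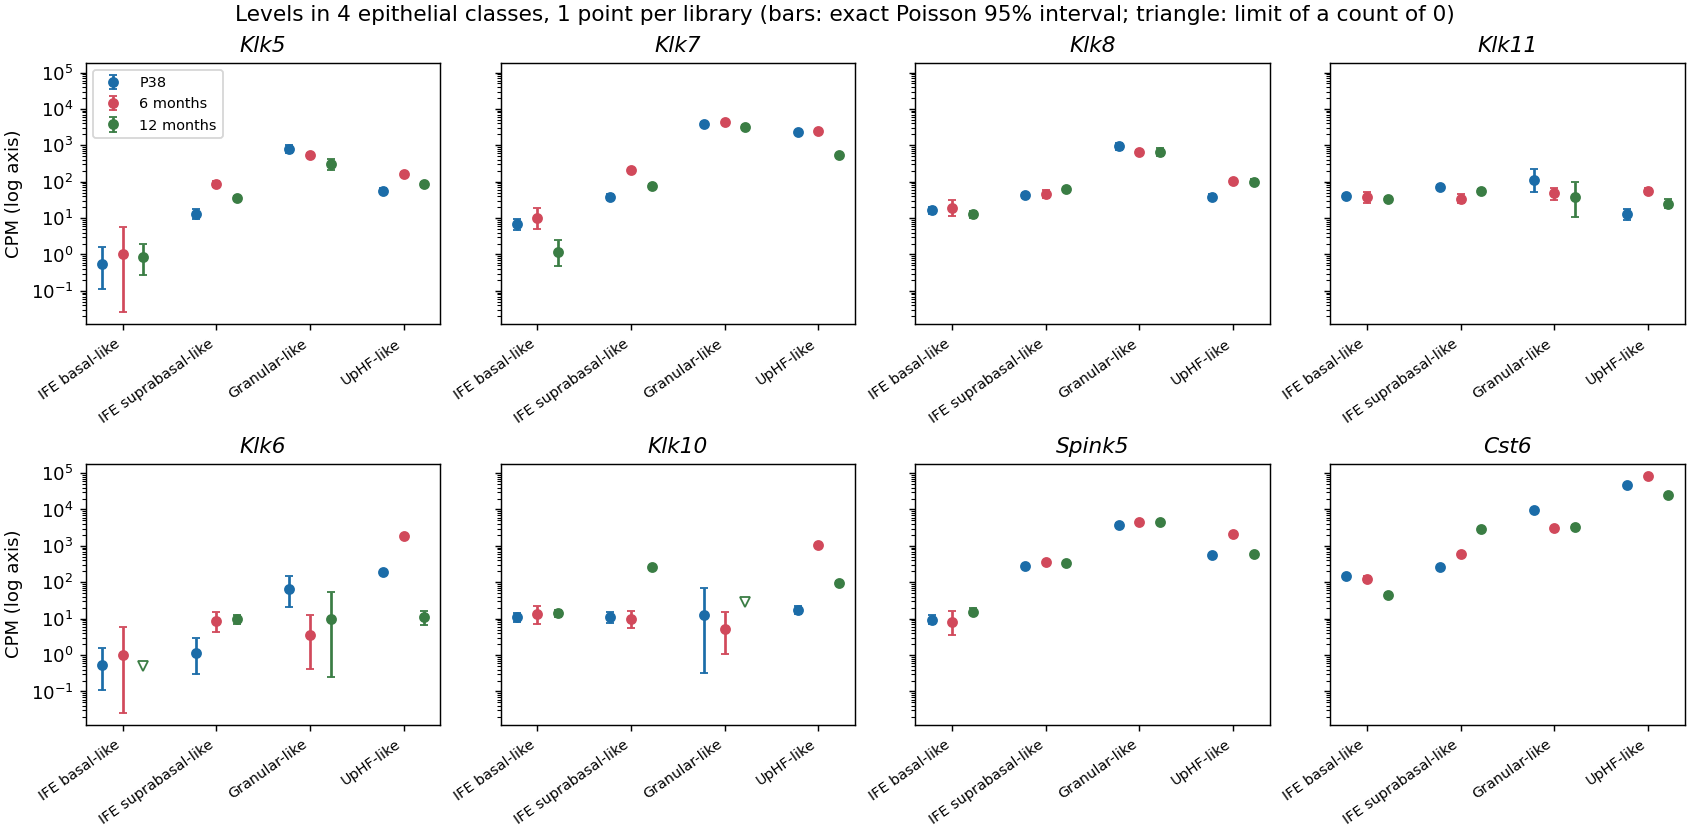
CPM on a log axis of 8 genes in 4 epithelial classes, 1 point per library, with exact Poisson 95% intervals as bars and an open triangle at the limit that a count of 0 allows. Klk5, Klk7, Klk8 and Spink5 lie higher from IFE basal-like over IFE suprabasal-like to Granular-like cells in each library, while Klk11 stays between 12.7 and 115 CPM in all 4 classes.

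On the way up the epidermis, IFE suprabasal-like cells (171, 163 and 301 cells) lay between basal and granular cells for Spink5, with 280, 363 and 345 CPM. Klk5 stood at 13.2, 88.2 and 35.9 CPM and Klk7 at 38.2, 203 and 76.3 CPM there, above every basal value. These levels came from few cells: the 8 cells with most held 83.0%, 86.3% and 46.9% of the Klk5 UMIs and 69.9%, 86.0% and 67.0% of the Klk7 UMIs of the class, and the median cell had none of either. Klk8 stood at 42.7, 46.2 and 61.3 CPM. At 12 months, Klk10 (269 CPM) and Cst6 (2907 CPM) were far above their values at P38 (11 and 258 CPM) and 6 months (9.96 and 599 CPM) in this class. The 8 cells with most Klk10 held 97.8% of that Klk10 and Cst6 at 87842 CPM, with Krt79 at 1835 and Defb6 at 16434 CPM, while the other 293 cells had Klk10 at 6.05, Cst6 at 562, Krt79 at 390 and Defb6 at 300 CPM (299.6). Defb6 and Krt79 are markers of the upper follicle, and 5 of these 8 cells, picked for their Klk10, had Defb6 and 6 had Krt79. The suprabasal keratin Krt10 was in all 8, at 7802 against 10876 CPM, but Krt1 was in only 2, at 1254 against 4621 CPM. Klk7 stood at 48.8 CPM in the other 293 cells.

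Cst6 was the leading member of the upper follicle, and one of its most abundant transcripts. UpHF-like cells held it at 47652, 85293 and 24348 CPM in order of age, against 149, 125 and 44.1 CPM in IFE basal-like cells, a mean log2 difference of 8.94 ± 0.56 (SD, n = 3). They held 77.7%, 81.1% and 70.7% of all Cst6 UMIs of the kept cells. The level differed widely from cell to cell: the median cell had 110, 229 and 95.9 UMIs of Cst6 per 10000, and the highest had 29.3%, 43.2% and 30.1% of all its UMIs from this 1 gene. Cells with over 10% of their UMIs from Cst6 numbered 20 of 156, 42 of 143 and 14 of 165.

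Cst6 also had UMIs in cell types that should lack it. At 6 months Cst6 stood at 204 CPM in T cell-like and 154 in Langerhans and macrophage-like cells. Both lay above its 125 CPM in IFE basal-like, 133 in HF-SC-like (hair follicle stem cell) and 120 in Niche-like cells. Fibroblast-like cells held it at 125 CPM, near these epithelial levels. Free RNA gives UMIs of this kind, its part in those epithelial levels was not tested, and no expression is read from them. At 12 months T cell-like cells held Cst6 at 29.3 CPM and Fibroblast-like cells at 9.05 CPM, against 44.1 in IFE basal-like cells, and at P38 no non-epithelial class had enough cells to give such a level. Over all non-epithelial cells at 6 months (265 cells), Spink5 stood at 8.89 CPM against 8.21 in IFE basal-like cells, Klk7 at 5.92 against 10.3 and Klk8 at 17.8 against 19.5, with most of this Klk8 in T cell-like cells. At 12 months (569 cells) Spink5 stood at 1.67 against 15.7, Klk7 at 0.56 against 1.19 and Klk8 at 6.33 against 12.6 CPM. Log2 differences from IFE basal-like cells at 6 months therefore have a denominator near this level for Spink5 and Cst6.

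Klk7 was the main protease of the upper follicle, at 2348 CPM (2294 to 2404), 2416 (2349 to 2484) and 549 (517 to 581). In the granular cells it had been higher than in UpHF-like cells in every library, by 1.65-fold, 1.78-fold and 5.91-fold. Spink5 stood at 553, 2058 and 588 CPM and Klk5 at 56.4, 163 and 84.9 CPM. Of the 8 members with enough UMIs, 6 were at least 2-fold higher in UpHF-like than in IFE basal-like cells in all 3 libraries (Klk5, Klk6, Klk7, Klk8, Spink5 and Cst6), where 6.83% of 9452 genes were. Klk10 was higher by 0.68, 6.30 and 2.75 on the log2 scale, and Klk11 differed by -1.66, 0.57 and -0.42, so its direction was not the same in the 3 libraries.

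The 2 sites shared a set of genes but in other proportions. Per 100 UMIs of Klk5 and Klk7, UpHF-like cells held 23.0, 79.8 and 92.8 UMIs of Spink5 in the 3 libraries, each below the granular value of the same library. Granular-like cells were at least 2-fold above UpHF-like cells in every library for 3 of 8 members (Klk5, Klk8 and Spink5), where 5.08% of 7973 genes were, and at least 2-fold below for 1, Cst6, where 19.4% were. The mean log2 differences were 2.48 ± 1.16 for Klk5, 3.35 ± 1.09 for Klk8, 2.27 ± 1.01 for Spink5 and -3.33 ± 1.31 for Cst6 (SD, n = 3 libraries). This contrast was not recomputed with clusters in place of gates. Clusters named Granular-like took in 28 of 156, 5 of 143 and 92 of 165 UpHF-like cells in order of age. Klk5 came with Klk7 at the level of cells: of UpHF-like cells with a Klk5 UMI, 45 of 45, 70 of 71 and 65 of 68 also had Klk7. The converse was less complete, since 37.5%, 64.8% and 65.7% of the cells with Klk7 had Klk5, which is the lower of both.

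**Figure D3:**
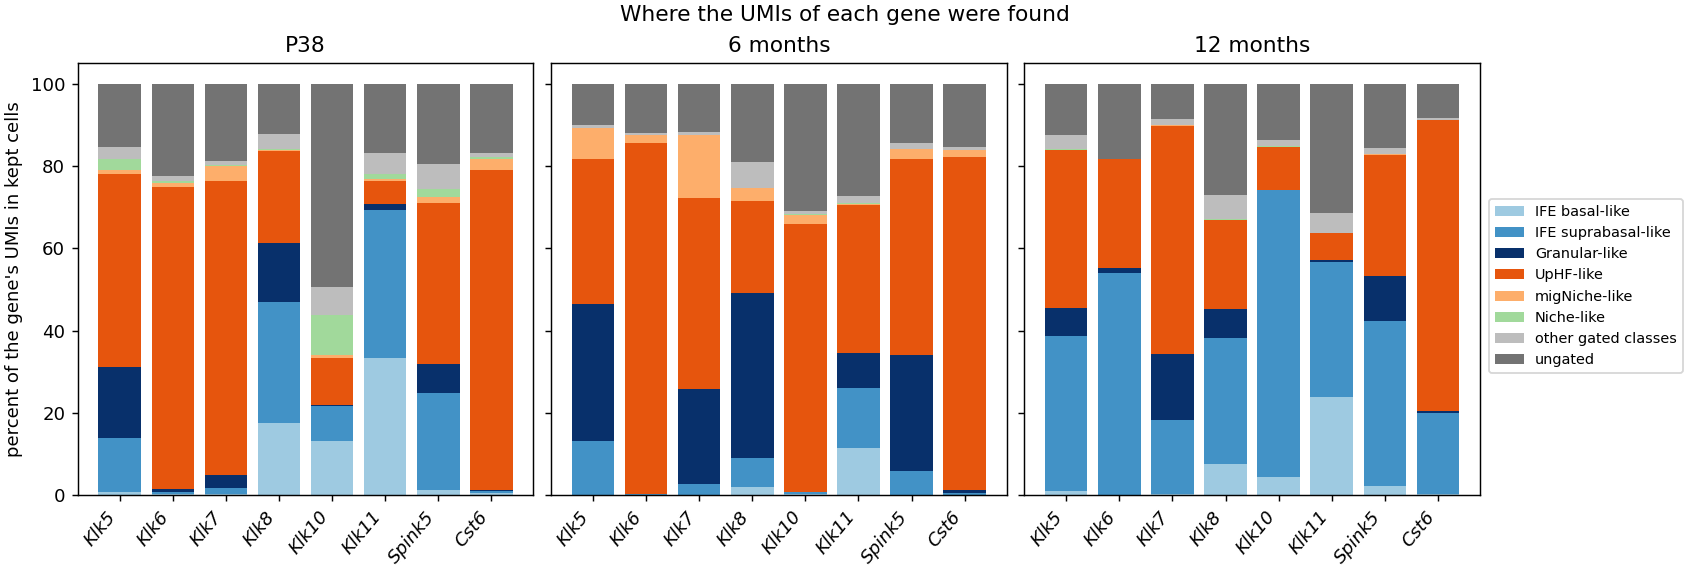
Share of each gene's UMIs in kept cells (vertical axis, percent) by class (colours), one panel per library and one bar per gene. UpHF-like cells hold 70.7% to 81.1% of the Cst6 UMIs, while Klk8 and Klk11 are spread over basal, suprabasal, upper follicle and ungated cells.

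Part of the upper follicle carried Krt6a, a keratin of the companion layer, the niche and stressed epidermis, and in the 6 months library these cells held most of Klk6 and Klk10. UpHF-like cells with high Krt6a numbered 72 at P38, 40 at 6 months and 2 at 12 months, which leaves the last without a level of use. At 6 months Klk6 stood at 5717 CPM (5536 to 5902) in the Krt6a-high cells and at 38.2 (28.6 to 49.9) in the others. Klk10 stood at 3266 (3129 to 3406) against 49.7 (38.7 to 62.9). Of the 40 Krt6a-high cells 34 had a UMI of Klk6, 23 had one of Klk10, and 22 had both. The levels were uneven: the 8 Krt6a-high cells with most held 70.3% of the Klk6 and 77.8% of the Klk10 UMIs. The median Krt6a-high cell had 27.2 and 7.63 UMIs of these per 10000, and the median other cell had none. Klk6 encodes a kallikrein also known from brain as neurosin.

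In the same 6 months cells Spink5 was at 4744 against 776 CPM, Klk7 at 3804 against 1754 and Cst6 at 186197 against 37130 CPM. Klk5 (234 against 129) and Klk11 (116 against 28.8) were higher too, while Klk8 was lower, at 24.1 against 139 CPM. The cells held Krt79 at 8441 CPM, as the rest of the class did, but Defb6 at only 1555 CPM. Cst6 alone made up over 10% of the UMIs in 27 of the 40 cells.

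At P38 the same split gave another picture, with no member higher by 2-fold on the Krt6a-high side. Klk6 was at 153 CPM (134 to 174) in Krt6a-high cells and 230 (206 to 256) in the others, and Klk10 at 13.1 (8.01 to 20.2) and 22.0 (15 to 31), intervals that overlap. The 8 cells with most Klk6 held 85.8% of its UMIs on the Krt6a-high side and 93.4% on the other. Spink5 was lower, at 350 against 766 CPM, and Cst6 stood at 48304 against 46968 CPM. Klk8 was lower again, at 9.18 against 70.1 CPM. No member was at least 2-fold higher in the Krt6a-high cells of both libraries, where 1.37% of 8037 genes were, and 1 of 8, Klk8, was at least 2-fold lower, where 3.98% were. The Krt6a-high cells at P38 kept Defb6 at 13797 CPM, so cells passing the same gate differed in an upper follicle marker between the libraries.

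**Figure D4:**
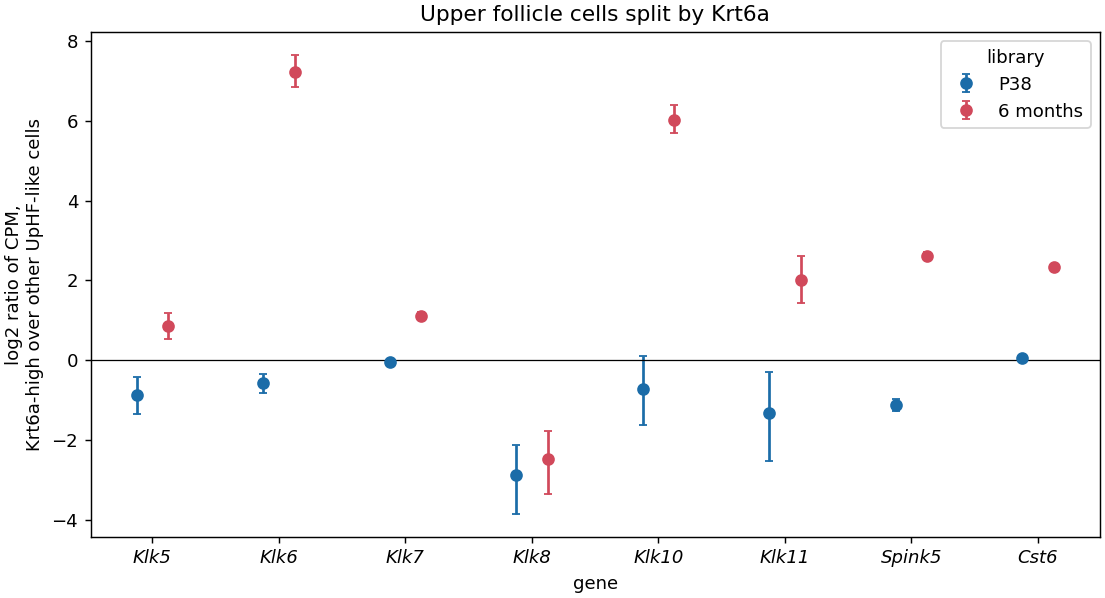
Log2 ratio of CPM in Krt6a-high over other UpHF-like cells (vertical axis) for 8 genes at P38 and 6 months, with exact conditional 95% intervals as bars. Klk6 and Klk10 lie at 7.21 and 6.03 at 6 months and at -0.59 and -0.73 at P38, and Klk8 lies below 0 in both.

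**Figure D5:**
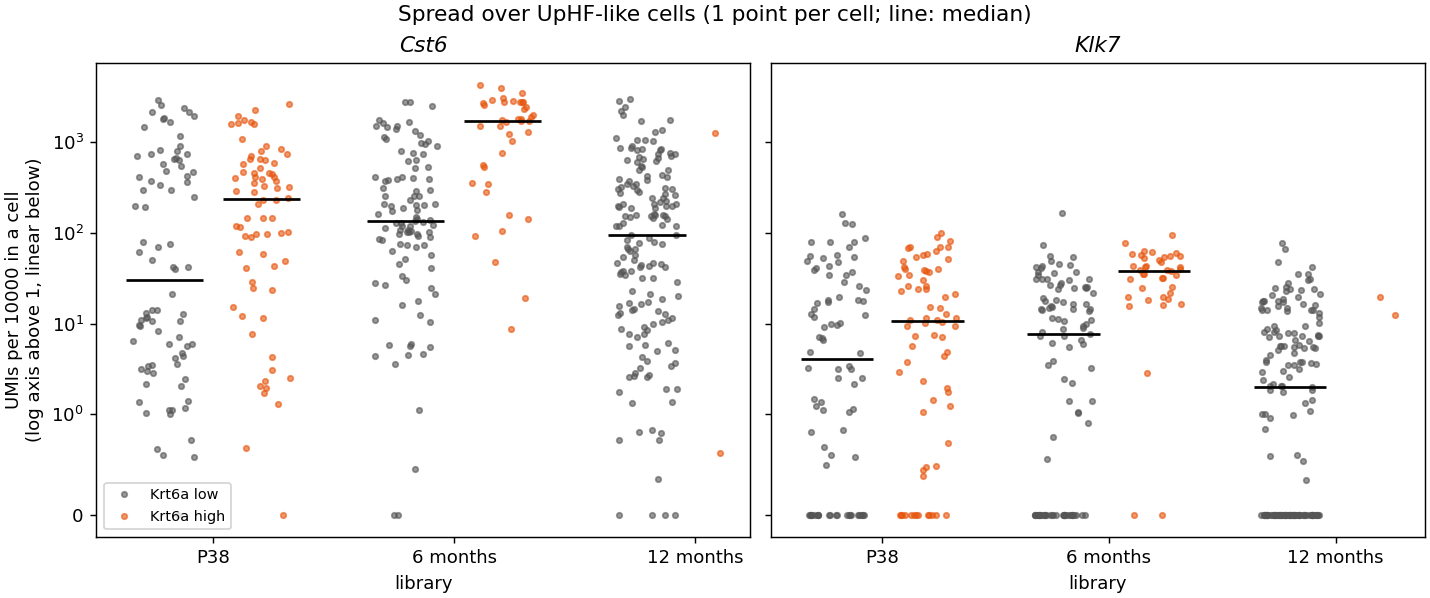
UMIs of Cst6 (left) and Klk7 (right) per 10000 UMIs of a cell, 1 point per UpHF-like cell, by library and by Krt6a, with medians as lines. The axis is logarithmic above 1 and linear below, and the 40 Krt6a-high cells at 6 months have a median Cst6 of 1727 per 10000 against 137 in the other cells of that library.

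UpHF-like cells with high Krt10, a keratin of differentiating epidermis, numbered 19, 10 and 41. They held Spink5 at 1408, 1484 and 1049 CPM, a mean log2 difference of 1.28 ± 0.11 from UpHF-like cells low in both Krt6a and Krt10 (SD, n = 3 libraries). Klk5 and Klk8 differed less, by 0.73 ± 0.33 and 0.76 ± 0.75, and Cst6 was lower, by -1.34 ± 1.04. Spink5 was the member whose difference varied least between the libraries.

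Between the ages, with 1 library each, UpHF-like cells differed in most members. Klk6 was at 190 CPM (175 to 207) at P38, 1873 (1814 to 1933) in the 6 months library and 10.8 (6.88 to 16.3) in the oldest library. Klk10 was at 17.4 (13 to 22.9), 1089 (1044 to 1135) and 94.3 (81.7 to 108). From P38 to 6 months, 6 of 8 members were higher by at least 2-fold (Klk5, Klk6, Klk8, Klk10, Klk11 and Spink5), where 11.3% of 10190 genes were, and the log2 difference of Klk7 was 0.04 (-0.01 to 0.09). At 12 months against P38, 3 of 9 were higher (Klk8, Klk10 and Klk13, the last on 8 against 2 UMIs), where 20.1% of 10394 genes were, and 2 were lower (Klk6 and Klk7), where 10.6% were. At 6 months against 12 months, 6 of 9 were higher (Klk6, Klk7, Klk10, Klk11, Spink5 and Cst6), where 10.1% of 10317 genes were.

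Much of the height at 6 months went with the Krt6a-high cells. Without them, in the other UpHF-like cells, Klk6 stood at 38.2 CPM at 6 months against 230 at P38, the opposite direction. That P38 level came from few cells: 8 of 84 held 93.4% of the Klk6 UMIs, and the median cell had none. A Klk6 UMI was found in 22.3% of the other UpHF-like cells at 6 months and in 23.8% at P38. Spink5 stood at 776 against 766 CPM, Cst6 at 37130 against 46968, and Klk10 at 49.7 against 22.0, still higher by 2.26-fold. This Klk10 came from few cells too: 8 cells held 78.3% of its UMIs at 6 months and 90.6% at P38, and the median cell had none. At 12 months Klk7 (543 CPM) and Cst6 (24509 CPM) remained the lowest of the 3 libraries among these cells. The share of cells with a UMI, after each cell was thinned to 1000 UMIs, followed the levels: Klk6 was found in 9.03%, 26.7% and 0% of UpHF-like cells, and Klk7 in 49.7%, 60.8% and 29.9%. Unthinned shares were 26.3%, 39.9% and 6.67% for Klk6 and 76.9% and 75.5%, and 99 of 165 cells, for Klk7. Thinning left out 1, 23 and 8 shallower cells, and no T cell-like cell held either gene after it.

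Without the cells whose barcodes are shared between libraries, Klk6 at 12 months was lower still, so that its log2 difference from P38 moved from -4.10 to -5.26. Under cluster names in place of gates, the differences of Klk5, Klk10 and Klk11 between 12 months and P38 changed direction, beside the 92 of 165 cells that lay in another named cluster.

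MigNiche-like cells, gated on high Gja1 and Krt6a, held Klk7 and Cst6 above the Niche-like cells. The paper sets its migratory niche population apart from the inner bulge niche and relates it to Krt6-positive cells. MigNiche-like cells numbered 172 at P38 and 176 at 6 months, and the 7 cells at 12 months, with 5945 UMIs in all, are not described further. Clusters named migNiche-like took in 80 of the 172 and 75 of the 176, and 8 of the 176 lay in a UpHF-like one. Clusters named HF-SC-like (hair follicle stem cell) took in 67 of 162 Niche-like cells at P38 and all 32 at 6 months. Neither class of this contrast is thus cleanly drawn. Klk7 stood at 131 CPM (118 to 145) at P38 and 615 (586 to 646) at 6 months, against 18.1 and 7.82 CPM in Niche-like cells. Cst6 stood at 1802 and 1358 CPM against 371 and 120. Of 6 members with enough UMIs, these 2 were at least 2-fold higher in both libraries, where 5.54% of 9699 genes were. The Klk7 came from few cells, since the 8 cells with most of it held 95.8% of its UMIs at P38 and 76.1% at 6 months. The same held for Cst6, with 72.0% and 56.3% of its UMIs in 8 cells and a median cell at 4.18 and 3.26 per 10000. Much of the higher class levels thus came from a few cells. For Klk7 at P38 the remaining cells were not shown to exceed Niche-like cells. The summed kallikreins differed by 1.60 (1.29 to 1.92) at P38 and 5.02 (4.12 to 6.32) at 6 months on the log2 scale, a mean of 3.31 over these libraries.

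Klk8, Klk10 and Klk11 were also found in IFE basal-like cells. Klk10 stood there at 10.9, 13.3 and 14.0 CPM, with a UMI in 14.3%, 19.1% and 16.4% of cells, and Klk8 was in 21.5%, 22.1% and 13.3%. Klk11 made up 53.6%, 45.7% and 53.8% of the kallikrein UMIs of IFE basal-like cells, and it was found in 42.3%, 35.3% and 34.3% of them. IFE suprabasal-like cells held it at 69.7, 34.1 and 54.6 CPM. In the hair follicle stem cells it was nearly missing, with 4, 0 and 2 UMIs in 401, 231 and 149 HF-SC-like cells.

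Klk8 stood higher in T cell-like cells than in basal ones, at 136 CPM (93.2 to 192) at 6 months and 132 (86.8 to 192) at 12 months. It was found in 24 of 51 and 20 of 40 of them, against 1 and 0 for Klk7. After thinning to 1000 UMIs it was in 13.7% and 12.5% of T cell-like cells and in 1.02% and 0% of Fibroblast-like cells (0 of 299 cells in the last). Among T cell-like cells with a UMI of Trdc, which encodes the constant region of the T cell receptor delta chain, it stood at 191 CPM (121 to 286) at 6 months in 26 cells and 149 (97.4 to 218) at 12 months in 38 cells. The 25 cells without Trdc at 6 months held 78.6 CPM (36.0 to 149), an interval that overlaps the former.

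Klk13 and Klk14 were barely found. Klk13 had 7, 37 and 22 UMIs over all kept cells of the 3 libraries, and Klk14 had 3, 5 and 1. In UpHF-like cells Klk13 had 2, 7 and 8 UMIs. At this depth no pattern over classes can be given for either.

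Of the other 18 kallikreins listed, only Klk9 reached 50 CPM in any class. It stood at 587, 523 and 292 CPM in Granular-like cells and at 10.4, 17.5 and 0.94 CPM in UpHF-like cells, so that it lay with the granular set. Of 10 substrates and receptors, 8 reached 50 CPM. Cdsn (corneodesmosin, a substrate of KLK5 and KLK7) stood at 1543, 1889 and 982 CPM in Granular-like cells, against 195, 242 and 93.4 in UpHF-like and 0.54, 1.03 and 0.68 in IFE basal-like cells. Dsg1a, a desmoglein, was highest in IFE suprabasal-like cells (767, 727 and 873 CPM). F2rl1, the receptor PAR2 that KLK5 can activate, gave no UMI in Granular-like cells and stood at 141, 79.4 and 70.7 CPM in UpHF-like cells.

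Among 15 activators and other membrane or secreted serine proteases, 8 reached 50 CPM. Prss8 (prostasin) stood at 370, 239 and 331 CPM in Granular-like and 104, 79.0 and 14.6 in UpHF-like cells. Prss22 was a protease of the upper follicle, at 866, 104 and 14.6 CPM, and its level in Krt6a-high cells was 1264 at P38 and 305 at 6 months against 449 and 7.92 in the others.

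The inhibitors split by site as well. Of 22 other serine protease inhibitors, 12 reached 50 CPM. Wfdc21 (1888, 7320 and 5165 CPM), Serpina12 (1020, 1746 and 2004 CPM) and Serpinb7 (561, 1132 and 1634 CPM) were granular, and none exceeded 86.7 CPM in UpHF-like cells of any library. Spink12 was found in UpHF-like cells of 6 months alone among the 3 libraries (1487 CPM, against 0.34 and 0), and within them only in the Krt6a-high cells, at 4602 CPM. Serpinb2 was epidermal and stood at 6020, 2313 and 353 CPM in IFE basal-like cells.

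Of 9 other cystatins, 5 reached 50 CPM. Csta1 stood at 6300, 3065 and 3813 CPM in Granular-like cells, and Cstb at 10714, 8733 and 1445 CPM in UpHF-like cells. All 5 cysteine proteases listed as targets or relatives of targets of cystatin M/E reached that level. Ctsl (cathepsin L) stood at 3609, 3401 and 4377 CPM in Granular-like cells and at 662, 760 and 39.6 CPM in UpHF-like cells, where the lowest value was in the library with the lowest Cst6. Ctsb (cathepsin B) stood at 791, 1290 and 335 CPM in UpHF-like cells.

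Across 35 class and library pairs with at least 20 cells, the gene most like Cst6 in log2(CPM + 5) was Klk7, and the reverse, with Pearson r = 0.94. Spink5 was closest to Asprv1 (r = 0.93), a protease that processes filaggrin, and then to Klk5 (r = 0.91). Klk6 was closest to Sprr4 (r = 0.93), Klk5 to Etv2 (r = 0.95), Klk11 to Clca2 (r = 0.94), Klk8 to Dkkl1 (r = 0.84) and Klk10 to Fam89a (r = 0.86). The points share libraries, depth and free RNA, and Granular-like cells, with under 20 cells, are not among them, so these values only describe likeness. With the Granular-like pairs added (38 points, chosen after the values were seen), the gene closest to Klk5 was Teddm3 (r = 0.96), which is among the genes of the UpHF-like gate. Klk7 then had r = 0.91 with Cst6, below its 0.93 with Klk5 and 0.92 with Spink5, so Cst6 was no longer the gene most like it.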

How the data were processed

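Raw UMI counts per gene and barcode were used as deposited by the authors, who mapped reads to mm10 and counted with Cell Ranger (6.1.2 in the submitters' notes and in the P38 file header, 6.0.0 in the other headers). No normalization had been applied. The authors' filter was repeated (more than 200 and fewer than 5000 genes, under 15% mitochondrial UMIs); it kept as many cells at P38 as the study states, a few more at 12 months and many more at 6 months, for a reason not given in the sources used here. Cells were gated on counts per 10000 of markers such as Lor (100), Krt79 (20), Krt10 (20), Gja1 and Krt6a (10 each). UMIs were summed per class and library and given as CPM.

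Intervals are exact (Poisson, conditional for ratios, Clopper-Pearson for shares, 95%). Log2 ratios had 0.5 counts added to each side, and limits of a count of 0 use 3 counts. A gene was counted as higher or lower at 2-fold or more in every library, among genes with at least 10 UMIs over both classes. The members and lists were chosen with earlier results of these data known, so no test was run. All members are named; from each list, up to 6 genes of at least 50 CPM with the highest levels could be named. Alternatives were clusters (Leiden in scanpy 1.11.5, resolution 2), other cell filters, Scrublet scores, stricter gates, means over cells, added CPM, subtraction of T cell-like levels and leaving out libraries. No doublets were removed and no free RNA subtracted in the values given. Ratios were checked on simulated data. Python 3.11.15, numpy 2.4.6, scipy 1.17.1 and pandas 2.3.3 were used.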

Additional observations from a re-analysis of the deposited data

Results flagged for a closer look

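Several members differed between the P38 and 6 months libraries in the direction of a contrast within each library, and none of these differences was tested, since each age is 1 library. For Klk11, UpHF-like minus IFE basal-like cells was -1.66 at P38 and 0.57 at 6 months on the log2 scale, 2.23 apart. For migNiche-like minus Niche-like cells, Klk10 was at -3.48 and 2.27, 5.75 apart, and Spink5 at -0.56 and 2.42, 2.98 apart. The Niche-like Klk10 at P38 rested on 44 UMIs in 8 of 162 cells.

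Within UpHF-like cells, Krt6a-high minus other cells had opposite directions, with intervals on either side of 0, for 4 members. Klk6 was at -0.59 at P38 and 7.21 at 6 months, 7.80 apart. At P38, 8 cells held 93.4% of the Klk6 UMIs of the other UpHF-like cells. Spink5 was at -1.13 and 2.61, 3.74 apart. Klk11 was at -1.33 and 2.003, 3.33 apart, and Klk5 at -0.87 and 0.86, 1.73 apart. Klk10 (-0.73 and 6.03) and Klk7 (-0.06 and 1.12) also had opposite signs, but their P38 intervals (-1.63 to 0.10 and -0.13 to 0.01) held 0.

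Barcodes with 5000 or more genes, which the filter removes, numbered 433 at 6 months and carried 4 of the 8 more abundant members above the level of the kept cells of that library. Cst6 stood at 10813 CPM in them (8743 in kept cells), Klk7 at 457 (431), Klk5 at 74.2 (38.3) and Klk8 at 45.9 (37.98). Klk6 (130.4 against 182), Klk10 (97.8 against 139), Klk11 (10.98 against 13.2) and Spink5 (345 against 359) were lower in them. They held 237374 UMIs of Cst6, against 215929 in the kept cells.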

How the results depend on the processing

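Of 60 recomputed class ratios 48 moved by less than 1 SD over the libraries, and none changed direction. Granular-like against UpHF-like cells, and Krt6a-high against other UpHF-like cells, were not among the recomputed ratios. The 48 include the ratios with 1 library left out, 5 for each library. A mean without 1 library cannot move by 1 SD of the same 3 values, so these add nothing to the count. With clusters in place of gates the mean log2 ratio was 5.01 for the summed kallikreins and 7.53 for Spink5 in Granular-like over IFE basal-like cells, and 8.30 for Cst6 in UpHF-like over IFE basal-like cells. With the mean over cells these were 5.97, 7.82 and 8.15. With T cell-like levels subtracted (P38 has none) they were 10.0, 9.27 and 11.2, and 8.81 for the summed kallikreins of UpHF-like cells. T cell-like kallikrein sums, nearly all Klk8, were 145 and 132 CPM at 6 and 12 months, above the 83.2 and 62.4 of IFE basal-like cells. Cst6 and Spink5 at 6 months were also above their basal levels. Such basal levels were set to 3 counts after subtraction, so these larger ratios follow from that setting and nothing is read from them. All deposited barcodes gave 5.99 for the granular sum, and 5 CPM added gave 8.06 for Spink5. Leaving out 1 library at a time gave 6.08 to 6.17 for the granular sum, 4.46 to 5.61 for the UpHF-like sum, 3.31 to 5.41 for the migNiche-like sum, 8.39 to 8.81 for Spink5 and 8.71 to 9.25 for Cst6. The migNiche-like sum, 4.14 with all 3 libraries, then counts the 7 cells at 12 months, 6 of them with shared barcodes. Clusters gave no 6 months value for it, since no cluster was named Niche-like there.

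Between ages in UpHF-like cells, 49 values stayed, 25 moved and 3 reversed. With clusters in place of gates only 3 of these stayed and 19 moved, so most age differences depend on how the class was drawn. The reversed ones, all 12 months minus P38 under clusters, were -1.65 for Klk5, -1.45 for Klk10 and -2.12 for Klk11. The cause was not tested. Of 150 shares of cells, 107 moved when cells were thinned. Leaving out shared barcodes was added after seeing the data. Depth limits Klk13 and Klk14 in every class and each member but Klk5, Klk7, Klk8, Spink5 and Cst6 in Granular-like cells.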
